A study of Zea mays with 448 samples.

Results

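In F1 hybrids of maize and its wild relative teosinte, 121 genes gave more reads from the maize allele in 1 tissue and more from the teosinte allele in another. They were found by summing the reads of the hybrids per tissue, counting each polymorphic position once per gene model, and taking the log2 of maize over teosinte reads of each gene. A gene was a member if it had at least 200 reads in each of 2 tissues, a log2 ratio of at least 0.4 in the first and of at most -0.4 in the other. Of 53725 gene models with polymorphic sites, 16470 had 200 reads in at least 1 pair of tissues and could be scored. The members were thus chosen by their summed F1 ratios in immature ear, leaf and seedling stem, and these ratios are given below as a description, with no test. Tests are given only for data that the choice did not use, which were the parent inbreds, a hybrid that the rule left out and the summed level of both alleles.

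In an F1 hybrid the maize and the teosinte allele of a gene lie in the same nuclei and meet the same transcription factors, so an unequal number of reads from the alleles reflects differences linked to the gene itself, which are called cis differences. A cis-regulatory element often works in some tissues and not in others. A gene can carry several elements, and alleles that differ at more than 1 of them can be ranked differently in different tissues.

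The study crossed 6 maize inbreds (B73, CML103, Ki3, Mo17, Oh43 and W22) with 9 teosinte inbreds (TIL01, TIL03, TIL05, TIL09, TIL10, TIL11, TIL14, TIL15 and TIL25) and sequenced polyA RNA from ear, leaf and stem of the hybrids and of the inbreds. All plants were untreated, and the stem samples took in the shoot apical meristem. A maize or hybrid ear sample was a single ear, whereas many of the small ears of a teosinte plant were pooled, so that in the parents the species and the pooling of ears cannot be told apart. Each inbred stands for its species through 1 genotype, and each hybrid is a fixed pair of genotypes, so crosses with a parent in common repeat the same genotype.

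The rule used 165 of 180 F1 libraries, those with 45 to 55% maize reads in the 28 of 31 crosses that then had all 3 tissues, which gave 58 ear, 54 leaf and 53 stem libraries. These held 814821 to 3178486 reads at polymorphic sites each. Both ear libraries of Oh43xTIL10 are labelled biological replicate 1, and both were summed, so this replicate enters ear with the reads of both. All 58, 54 and 53 libraries correlated best with the other libraries of their labelled tissue. The summed level of 5 photosynthesis genes had a median of 7698 CPM (counts scaled to a common library size) in leaf against 24.3 in ear and 36.9 in stem, and that of 6 inflorescence genes a median of 35.9 in ear against 0 in leaf and 1.38 in stem. The 15 libraries set aside were 3 of B73xTIL01 with 56.9 to 80.7% maize reads, 4 of CML103xTIL25 with 31.1 to 31.9%, 4 of Mo17xTIL25 with 96.3 to 99.4%, and 4 of Mo17xTIL01, which had an even share but no ear library.

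Opposite allele bias was found in 66 genes between ear and leaf, in 28 between ear and stem and in 51 between leaf and stem. These were 0.443% of 14895, 0.18% of 15542 and 0.327% of 15577 genes with 200 reads in both tissues. The samples are bulk tissue, in which fewer cells of a type and less RNA per cell cannot be told apart. Between ear and leaf 39 members had the maize allele higher in leaf (0.262%) and 27 in ear (0.181%). Between ear and stem 16 had it higher in ear (0.103%) and 12 in stem (0.0772%), and between leaf and stem 30 had it higher in leaf (0.193%) and 21 in stem (0.135%). Of the members, 97 were opposed in 1 pair of tissues and 24 in 2. Opposite signs alone were much more common and were seen in 26.3%, 20.7% and 22.2% of scored genes, whereas 1642, 2055 and 2113 genes passed 0.4 on the same side in both tissues of a pair.

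**Figure D1:**
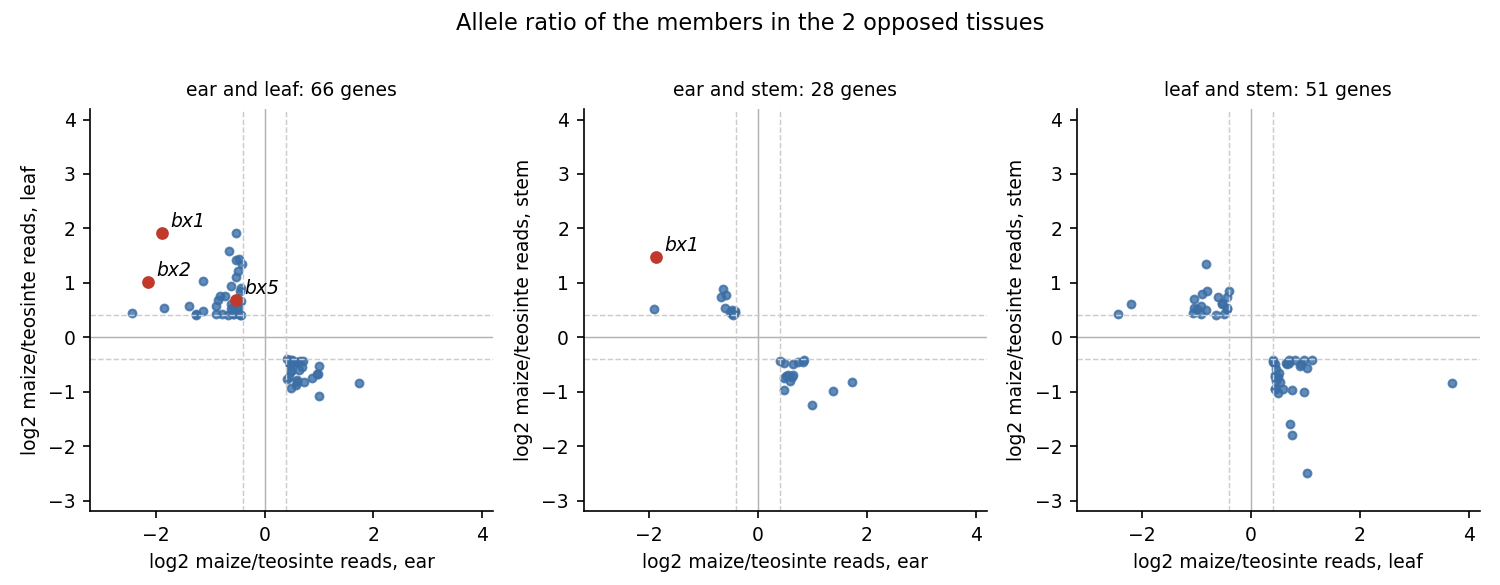
The log2 ratio of maize to teosinte reads, summed over 28 F1 crosses, is plotted for each member in its 2 opposed tissues, with a panel for each pair (66, 28 and 51 genes). Dashed lines mark 0.4 and -0.4, and by the rule all points lie in the upper left or lower right corner. The gene bx1, at -1.88 in ear, 1.92 in leaf and 1.48 in stem, lies farthest from both lines in the panels of ear with leaf and ear with stem.

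The members were shallower than other scored genes. Their tissue with fewer reads had a median of 510, 570.5 and 384 reads in the ear and leaf, ear and stem, and leaf and stem pairs, against 1924, 2359 and 1967 for all scored genes. The part of counting error in the membership was not tested. The difference between the opposed log2 ratios had a median of 1.33, 1.25 and 1.36 in the respective pairs and reached 3.79, 3.35 and 4.53.

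Where the remaining tissue also had 200 reads, its ratio lay between those of the opposed tissues for 52 of 60 members opposed in ear and leaf, for 15 of 21 opposed in ear and stem, and for 19 of 29 opposed in leaf and stem. Since the rule sets the opposed ratios far apart, a value between them is likely for any tissue left out of the choice. Among the 60 genes opposed in ear and leaf, stem favoured maize in 26 and teosinte in 34.

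The threshold cut through a continuous range of values. Just inside it were GRMZM2G154124 (leaf 0.40, stem -0.45), GRMZM2G379540 (leaf 0.40, stem -0.42) and GRMZM2G375593 (leaf -0.40, stem 0.86). Just outside were GRMZM2G167253 (ear -0.3998, leaf 0.68), GRMZM2G030051 (leaf 0.46, stem -0.3992) and GRMZM2G103135 (ear 0.3988, stem -0.78). GRMZM2G375593 was opposed in 0 of 5 crosses and at 0 of 3 sites with 20 reads in both tissues, so its membership came from the sum over crosses alone. GRMZM2G379540 was opposed in 8 of 15 crosses, and GRMZM2G154124 in 1 of 6.

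Crosses were then compared 1 by 1, using those with at least 20 reads of the gene in both tissues and adding 0.5 to each count. The number of such crosses ranged from 1 to 28 for ear and leaf, 0 to 24 for ear and stem and 1 to 24 for leaf and stem, with medians of 6.5, 7 and 6. Among members with 3 or more, a median of 52.1%, 42.3% and 43.7% of the crosses were themselves opposed in the direction of the sum. The ratio moved in that direction between the tissues in a median of 85.2%, 83.3% and 84.6% of crosses, whether or not it changed sign. More than 50% of crosses were opposed for 31 of 62, 8 of 24 and 12 of 42 members, and all crosses for 4, 1 and 1. In most crosses of most members the ratio thus moved in the direction of the sum, while a change of sign was less common. The reads of these crosses made up the sums that chose the members, so this agreement is partly set by the choice. No value for all scored genes is given beside it.

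**Figure D2:**
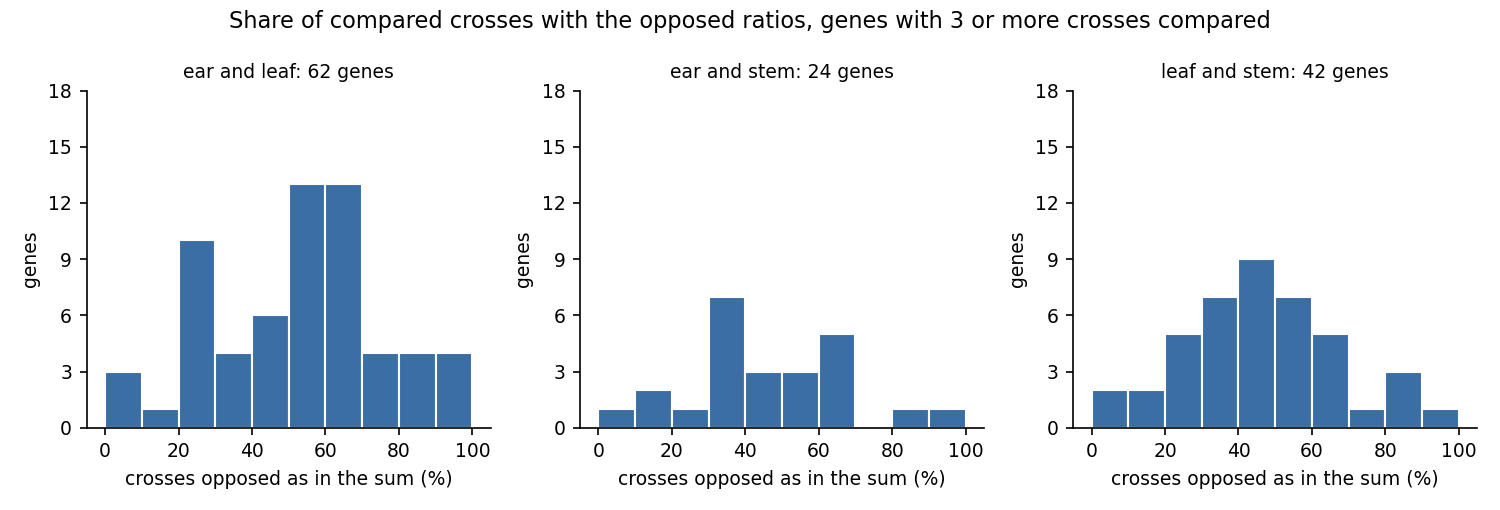
Histograms of the percentage of crosses whose own ratios were opposed in the direction of the sum, for members with at least 3 crosses compared (62, 24 and 42 genes for the 3 pairs of tissues). The bars spread over nearly the whole range, with medians of 52.1%, 42.3% and 43.7%.

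Single crosses carried many memberships. Without any 1 of the crosses, 22 of 66, 8 of 28 and 12 of 51 members of the 3 pairs still met the rule, and the other 44, 20 and 39 were lost when at least 1 particular cross was left out. In 4, 5 and 1 of them leaving out a cross turned the sign of a tissue. At single sites with 20 reads in both tissues, more than 50% of sites were opposed in 49 of 66, 16 of 27 and 35 of 51 members, and every site in 14, 3 and 7. The counts at these sites made up the sums that chose the members, and nearby sites can share reads. Agreement of sites, here and for single genes below, is thus partly set by the choice. No value for all scored genes is given beside it. By teosinte parent, crosses with TIL25 were opposed most often between ear and leaf, in 66 of 99 values of a gene in a cross, and between ear and stem, in 25 of 35, where all crosses together gave 331 of 656 (50.5%) and 41.7% of 242. Between leaf and stem TIL25 stood at 28 of 56 and all crosses at 183 of 400 (45.8%). There TIL10 (15 of 25), TIL03 (36 of 65) and TIL01 (19 of 35) stood higher. Crosses weigh in the sum by their reads. B73xTIL25 had the most polymorphic sites of the crosses used (119428) and the deepest ear library (2685844 reads). Agreement of TIL25 crosses with the direction of the sum cannot be told apart from their weight in it. These shares count genes of the same libraries and are given without a test.

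The member farthest past the threshold on both sides was bx1, a gene of the benzoxazinoid pathway, which makes DIMBOA and related defence compounds of young maize tissue. Genes of its early steps lie in a cluster near the end of chromosome 4, where the 6 with polymorphic sites spanned positions 2998741 to 3262835 of the B73 AGPv2 genome. In this pathway bx1 encodes the enzyme that releases indole from indole-3-glycerol phosphate, bx2 to bx5 encode cytochrome P450 enzymes that oxidise indole step by step, and bx8 and bx9 encode glucosyltransferases. The list of these genes was drawn up after the values of bx1, bx2 and bx5 had been seen. Those 3 genes were members, and in each of them the teosinte allele was higher in ear and the maize allele in leaf.

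The gene bx1 (GRMZM2G085381, 10 sites from 3256926 to 3258370) gave 77 maize and 283 teosinte reads in ear, a log2 ratio of -1.88. In leaf it gave 3183 and 844 reads, a ratio of 1.92, and in stem 16005 and 5755, a ratio of 1.48. It is the only gene of the pathway that met the rule for ear and stem too. Over 6 crosses the ear ratio had a lowest value of -4.22, a median of -2.98 and a highest of 1.97, and over 7 crosses the leaf ratio had -0.06, 1.48 and 8.59. The highest ear and leaf values were both those of Mo17xTIL14, the only cross with more maize than teosinte reads in ear, and the remaining 5 crosses favoured teosinte there. From ear to leaf the ratio rose in 6 of 6 crosses, by 4.84 ± 1.85 (mean and SD), and it changed sign in 4 of them. Stem ratios ran from -0.22 through a median of 1.21 to 5.69 over 8 crosses, and ear and stem were opposed in 5 of 6. All 4 sites with 20 reads in ear and leaf were opposed.

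Next to it, bx2 (GRMZM2G085661, positions 3260708 to 3262835) gave 160 maize and 704 teosinte reads in ear and 1941 and 966 in leaf, ratios of -2.14 and 1.01, with 0.35 in stem. Over 14 crosses the ear ratio had a lowest value of -5.43, a median of -2.58 and a highest of 0.69, and 12 of them favoured teosinte. Over 16 crosses the leaf ratio had -0.15, 1.14 and 2.52, and 14 favoured maize. The values in ear and leaf thus overlapped only through the crosses at the ends of each range. The rise from ear to leaf was seen in 13 of 13 crosses (3.76 ± 1.62, mean and SD) with a change of sign in 10, and at 8 of 8 sites. W22xTIL03 and Oh43xTIL03 were the crosses in which ear favoured maize, at 0.23 and 0.69.

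The third member, bx5 (GRMZM2G063756, positions 3108627 to 3110483), had smaller ratios of -0.52 in ear (1957 and 2801 reads), 0.68 in leaf (6408 and 3991) and -0.02 in stem. Its ear ratio ranged over 16 crosses from -3.17 through -0.19 to 1.01, and its leaf ratio from -0.78 through 0.85 to 1.95. Leaf was above ear in 15 of 16 crosses and opposed in 9. The other genes of the cluster were not members. In ear and leaf the F1 ratio was -0.61 and 0.06 for bx3, 0.01 and 0.93 for bx4, and 0.02 and 0.67 for bx8. In the hybrids leaf thus lay above ear in all 6 genes of the cluster. On chromosome 1, bx9 had 0.53 and 0.29 and did not share this order. The P450 genes bx2 to bx5 are similar in sequence, and bx5 shared 1 of its 9 sites with another gene model, so reads of near-identical stretches could be split between them. Among other names of the list, bx14 had 8 leaf reads, igl1 at most 3 reads in a tissue and bx6 no polymorphic site.

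**Figure D3:**
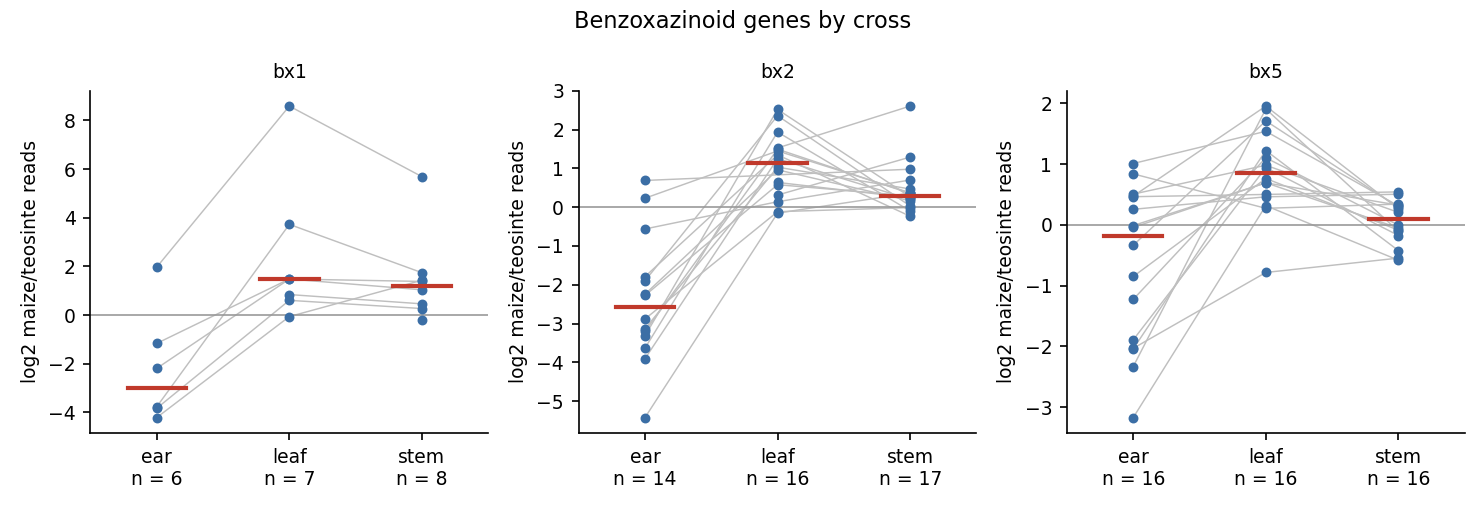
The log2 ratio of maize to teosinte reads of bx1, bx2 and bx5 in each F1 cross with at least 20 reads in the tissue, with grey lines joining a cross and red bars for medians (the vertical scales differ). The medians rise from -2.98 to 1.48 for bx1, from -2.58 to 1.14 for bx2 and from -0.19 to 0.85 for bx5 between ear and leaf.

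The member opposed in the most crosses was GRMZM2G105822 on chromosome 5 (25 sites from 8612714 to 8615292), which carries no gene name in RefSeq. It had 1380 maize and 1985 teosinte reads in ear (-0.52), against 1211 and 321 in leaf (1.92), while stem had 1488 and 1750 (-0.23). The leaf ratio was above 0 in all 18 crosses, from 0.05 through a median of 2.30 to 7.35, while 19 of 23 crosses favoured teosinte in ear, where the ratio ranged from -1.48 through -0.51 to 0.12. The ranges overlapped only between 0.05 and 0.12. In 15 of 18 crosses ear and leaf were opposed, all 18 moved toward maize in leaf (3.25 ± 1.90, mean and SD), and 16 of 18 sites were opposed. The least biased leaf values belonged to crosses with TIL11 and TIL05, and the largest to Oh43xTIL25 with 81 maize and 0 teosinte reads. In Mo17xTIL01, a hybrid that the rule left out, leaf did not favour maize, with ratios of -0.33 (43 and 54 reads) and -0.36 (3 and 4 reads) in its leaf libraries and of -0.15 and -0.73 in its stem libraries.

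In GRMZM2G152548 on chromosome 5 (10230215 to 10231392) the order was the reverse, with the maize allele higher in ear. Its ratio was 1.00 in ear (1687 and 841 reads), -0.54 in leaf (7511 and 10889) and 0.63 in stem (1647 and 1064), so that leaf was opposed to both other tissues. Over 21 crosses the ear ratio had a lowest value of -3.76, a median of 0.71 and a highest of 3.19, and over 23 crosses the leaf ratio had -3.55, -0.47 and 1.02. The ranges overlapped, and Oh43xTIL10 favoured teosinte in every tissue. The 4 highest ear values, 2.37 to 3.19, all came from crosses with TIL03. Ear and leaf were opposed in 14 of 21 crosses and leaf and stem in 11 of 20.

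Several further genes were opposed in ear and leaf in more than 10 crosses. GRMZM2G472827 (chromosome 1, 69 sites) favoured teosinte in ear (-0.61) and maize in leaf (0.94) and stem (0.54), was opposed in 13 of 24 crosses between ear and leaf, and moved toward maize in 23 of them. GRMZM2G433557 (chromosome 1) favoured maize in ear at 0.47 and teosinte in leaf at -0.50, with 12 of 14 crosses opposed and 9 of 10 sites. GRMZM2G012434 (chromosome 1) gave 0.55 and -0.47 with 12 of 20 crosses, GRMZM2G149211 (chromosome 8) gave 0.47 and -0.42 with 11 of 18, and GRMZM5G855337 (chromosome 6) gave 0.64 and -0.44 with 12 of 21. In the last gene 22 of 26 sites were shared with another gene model, so its counts cannot be assigned to it alone. GRMZM5G838388 (chromosome 8) favoured teosinte in ear (-0.44) and stem (-0.53) and maize in leaf (0.90), with 12 of 24 crosses opposed between ear and leaf but 4 opposed the other way.

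Some members with few crosses were uniform. GRMZM2G042181 on chromosome 4 (139441685 to 139441888) favoured maize in ear (504 and 252 reads, 1.00) and teosinte in leaf (3195 and 6737, -1.08) and stem (1625 and 3872, -1.25). Ear ratios of its 6 crosses ran from 0.07 through a median of 0.59 to 3.77, and leaf and stem ratios of 11 crosses from -2.02 to -0.35 and from -2.60 to -0.59. No value overlapped between ear and the other tissues, and all 6 crosses were opposed in both pairs. GRMZM2G324297 on chromosome 9 (61356118 to 61357658) favoured teosinte in ear (90 and 197 reads, -1.13) and stem (394 and 582, -0.56) and maize in leaf (1314 and 643, 1.03). Its ear ratios were -2.89 in W22xTIL14, -2.48 in Mo17xTIL14, -1.90 in Mo17xTIL09, -0.93 in B73xTIL14 and -0.35 in Ki3xTIL14, and its leaf ratios over 18 crosses ran from -0.71 through 0.64 to 2.56. Teosinte was higher in ear in all 5 crosses, each of which was opposed to its leaf.

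**Figure D4:**
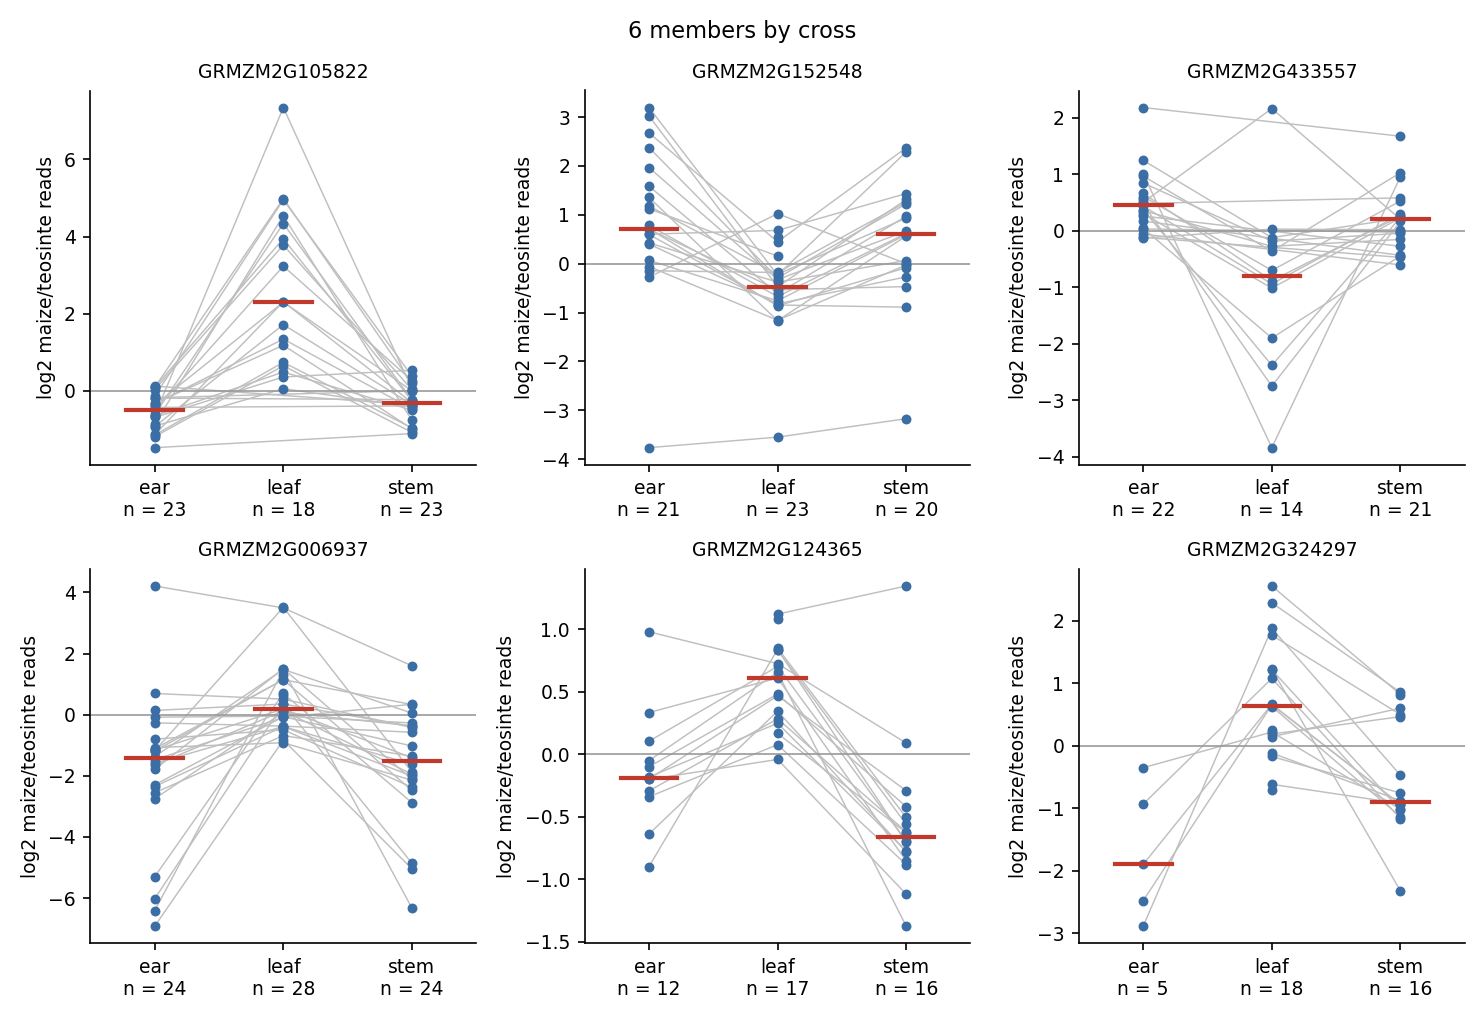
The log2 ratio of maize to teosinte reads of 6 members in each F1 cross with at least 20 reads in the tissue, with grey lines joining a cross and red bars for medians (the vertical scales differ). For GRMZM2G105822 all 18 leaf values lie above 0 and 19 of 23 ear values below it.

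Other large ratios rested on few crosses or on crosses of uneven size. GRMZM5G819919 (chromosome 10) gave 1.73 in ear, -0.85 in leaf and -0.81 in stem, with 4 of 7 crosses opposed in both pairs and cross values from -1.77 to 8.71 in ear. GRMZM2G066885 (chromosome 5) gave -0.82 in ear, 0.75 in leaf and -0.96 in stem, with 2 of 10 crosses opposed in ear and leaf and 3 of 9 in leaf and stem. AC205376.4_FG008 (chromosome 4) gave 0.72 in ear and 0.50 in stem against -0.83 in leaf. It moved toward maize from leaf to ear in 8 of 8 crosses, yet in 0 of 8 did the sign change. GRMZM2G160069 (chromosome 10) with 0.86 in ear and -0.75 in leaf was opposed in 1 of 4 crosses, and GRMZM2G338928 (chromosome 7) with 0.96 and -0.68 in 2 of 2.

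Among genes opposed in ear and stem, GRMZM2G087675 (chromosome 3) shows how a single cross can enter the sum. Its stem ratio of 0.74 held Oh43xTIL10 with 556 maize and 0 teosinte reads, whereas the other 8 crosses lay between -0.57 and 0.00, and ear ratios were -1.51 to 0.00 in 9 crosses. Of the crosses, 1 of 9 was opposed. GRMZM2G374309 (chromosome 7; ear 1.38, stem -0.99) had no cross with 20 reads in both tissues. GRMZM2G134045 (chromosome 9; ear -0.58, leaf 0.56, stem 0.78) was opposed in 6 of 12 crosses and opposed the other way in 2. GRMZM2G330635 (chromosome 10; ear 0.62, stem -0.72) was opposed in 4 of 12, GRMZM2G082302 (chromosome 2; ear 0.64, leaf -0.61, stem -0.69) in 2 of 4 in both pairs, and GRMZM5G830776 (chromosome 9; ear 0.59, stem -0.80) in 3 of 5.

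Between leaf and stem the gene opposed in the most crosses was GRMZM2G124365 on chromosome 8 (173105407 to 173107622). It gave 2350 maize and 1661 teosinte reads in leaf (0.50) and 891 and 1472 in stem (-0.72). Over 17 crosses the leaf ratio had a lowest value of -0.04, a median of 0.61 and a highest of 1.12, and over 16 crosses the stem ratio had -1.38, -0.66 and 1.34. Leaf favoured maize in 16 of 17 crosses and stem teosinte in 14 of 16, and W22xTIL14 was the cross with the high stem value. In all, 13 of 16 crosses were opposed and 15 moved toward maize in leaf (1.07 ± 0.50, mean and SD).

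GRMZM2G415579 on chromosome 10 (101493076 to 101494924) was similar at a lower depth, with 231 and 141 reads in leaf (0.71) and 155 and 470 in stem (-1.60). Leaf ratios ran from -0.91 through 0.75 to 2.32 over 7 crosses and stem ratios from -3.57 through -1.58 to 0.00 over 11. Teosinte was higher in stem in 10 of these 11, 6 of 7 crosses were opposed, and all 5 sites were. GRMZM2G337330 (chromosome 5; leaf 0.97, stem -1.0) was opposed in 3 of 4 crosses, all with TIL14.

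The other members with large ratios in leaf and stem differed more between crosses. GRMZM2G023152 (chromosome 4; 545 and 1124 reads in leaf, -1.04; 2238 and 1372 in stem, 0.71) had cross values from -4.45 to 8.20 in leaf and from -2.13 to 7.76 in stem, and 5 of 10 crosses were opposed. GRMZM2G054115 (chromosome 3; leaf -0.82, stem 0.84) was opposed in 2 of 4 crosses, and GRMZM2G123314 (chromosome 8; leaf -0.83, stem 1.34) in 2 of 2. GRMZM2G013170 (leaf 0.74, stem -1.80) and GRMZM2G156351 (leaf 1.02, stem -2.49) lie 54.1 kb apart on chromosome 4 and shared their direction, but each had 2 crosses compared, of which 1 was opposed, and Oh43xTIL11 gave 56.6% and 55.7% of their stem reads.

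Of the members, 79 were found in the RefSeq gene table of maize and 14 of these had a gene name besides a locus number. Besides the bx genes, 11 were named and covered unlike functions. ZCN6 (GRMZM2G132880), of the family of the flowering regulators FT and TFL1, had the largest difference, with 566 maize and 44 teosinte reads in leaf (3.69) and 73 and 131 in stem (-0.84). Its leaf ratios were 4.14 in W22xTIL11, 5.87 in W22xTIL25, 6.03 in W22xTIL14 and 8.08 in W22xTIL03, and its stem ratios -5.43 in Ki3xTIL09, -1.82 in W22xTIL25, -1.74 in Oh43xTIL09 and 0.31 in Oh43xTIL10. Only W22xTIL25 had 20 reads in both tissues, so the opposed ratios came mostly from different crosses.

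The aldehyde dehydrogenase gene rf2c (GRMZM2G071021, chromosome 3) was opposed in each of the 3 crosses compared. Its leaf ratios were 0.70 in Mo17xTIL09, 0.88 in B73xTIL09 and 1.17 in Ki3xTIL09, and its stem ratios in these crosses were -0.62, -0.34 and -0.38. Leaf and stem did not overlap in these 3 crosses, which share TIL09, and all 7 sites were opposed. The remaining cross, B73xTIL05, had 27 stem reads and a ratio of 0.31. The asparagine synthetase gene asn3 (GRMZM2G053669, chromosome 1) gave -0.64 in ear and 0.89 in stem, with 5 of 8 crosses opposed.

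A cystatin gene (GRMZM2G012160, chromosome 8), whose product inhibits cysteine proteases, gave 712 maize and 3901 teosinte reads in leaf (-2.45) and 498 and 372 in stem (0.42). Its leaf ratio was lowest in crosses with TIL09, Ki3xTIL03 and Oh43xTIL10, at -3.26 to -1.86, and the other 4 crosses lay between -0.38 and 1.16. From leaf to stem it moved toward maize in 10 of 10 crosses and changed sign in 4. The lipid transfer protein gene LTP3 (GRMZM2G126397, chromosome 3) gave -0.62 in ear and 0.52 in leaf and was opposed in 3 of 6 crosses, and the LIM domain gene LIM12 (GRMZM2G175761, chromosome 3) gave 0.44 in leaf and -0.96 in stem and was opposed in 4 of 9.

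Shares of opposed crosses also varied widely among the remaining named members. The annexin gene Ann8 (GRMZM2G132442, chromosome 6; leaf -0.44, stem 0.53) was opposed in 1 of 3 crosses, COAC2 (GRMZM2G161299, chromosome 5; ear 0.41, stem -0.44) in 7 of 20, and Natterin-4 (GRMZM2G134264, chromosome 2; ear -1.84, leaf 0.53, stem -0.83) in 4 of 5 between ear and leaf and 3 of 9 between leaf and stem. In hsbp1 (GRMZM2G085924, chromosome 2; leaf -1.0, stem 0.52), named for a protein that binds heat shock factor, all 18 sites were shared with another gene model. The thiamine synthesis gene thi1 (GRMZM2G018375, chromosome 8) gave -0.43 in ear and 0.48 in stem but was opposed in 0 of 9 crosses, since Oh43xTIL15 alone held 527 of the 735 teosinte reads in ear, and its mean over crosses was lower in stem than in ear.

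The parent inbreds show whether maize and teosinte plants differ between tissues in the way the alleles of the hybrids do. Libraries of an inbred and tissue were summed, and the difference of the maize to teosinte ratio between tissues was fitted with edgeR across 18683 genes, with the inbred as a block. Signed so that a positive value has the direction of the F1 difference, it was positive for 46 of 66 members between ear and leaf (69.7%, against 55% of all scored genes), for 19 of 28 between ear and stem (67.9% against 54.1%) and for 36 of 50 between leaf and stem (72.0% against 53.7%). Its median was 0.57, 0.46 and 0.71 for the members and 0.07, 0.05 and 0.04 for all scored genes. The low counts filter left out 1 member, ZCN6.

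Past an adjusted p of 0.05 in the edgeR quasi-likelihood test with Benjamini-Hochberg adjustment were 11 of 66 members (16.7%) between ear and leaf, where 13.1% of all genes and 14.2% of scored genes passed. All 11 had the maize ratio higher in leaf (8.53% of all genes) and 0 in ear (4.6%), and 10 had the direction of their F1 difference, as did 8.84% of scored genes. An unadjusted p under 0.05 was found for 23 members (30.3% of scored genes). The share of members called between ear and leaf was thus near the background.

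Between ear and stem 3 of 28 members passed by the same edgeR test (3.47% of all and 3.64% of scored genes). Of these, 2 had the maize ratio higher in stem (2.79% of all genes) and 1 in ear (0.674%), and 2 had the F1 direction (2.07% of scored genes). Unadjusted, 11 members passed (16.6% of scored genes). Between leaf and stem 1 of 50 passed (0.161% of all and 0.18% of scored genes), with the maize ratio higher in leaf (0.112% of all genes, and 0.0482% in stem) and the F1 direction (0.129% of scored genes). Unadjusted, 16 members passed (14.7% of scored genes), all 16 in the F1 direction. These p-values measure the spread between inbreds, which are single genotypes.

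Parent read counts were also taken at the sites of each cross, scaled to equal totals and summed over the same crosses. An inbred was thus counted again in each of its crosses, which also raised the scaled reads. These reached 200 in both tissues for 54, 24 and 32 members of the 3 pairs. Parents were opposed in the direction of the F1 for 28, 13 and 18 of these members. They were opposed the other way for 5, 2 and 1. The parent ratios passed 0.4 and -0.4 as the rule asked of the F1 ratios for 12, 7 and 10. Shares over all scored genes are not given for these counts.

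**Figure D5:**
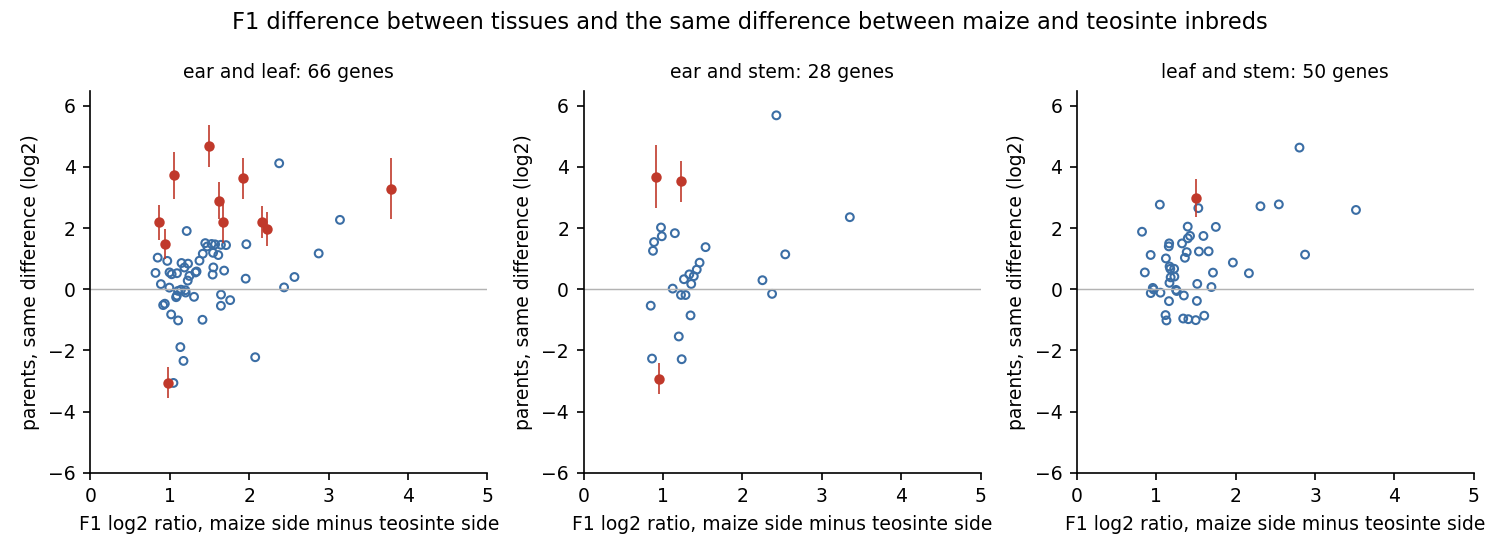
For each member, the difference of the summed F1 log2 ratio between its opposed tissues (horizontal) and the same difference between maize and teosinte inbreds fitted by edgeR (vertical, log2). Filled red points with SE bars are the 11, 3 and 1 members past an adjusted p of 0.05, and open points are the others (66, 28 and 50 genes tested). Of the red points, 10, 2 and 1 lie above 0.

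The largest difference in the parents among called members was that of GRMZM2G139815 (chromosome 7, 92392256 to 92393823; F1 ratio -0.73 in ear and 0.76 in leaf), at 4.69 ± 0.69 (SE; edgeR adjusted p = 6.63e-05). Within maize inbreds the log2 of leaf over ear level was 1.45 in B73, 1.77 in CML103 and 0.58 in W22, and within teosinte inbreds it was -2.08 in TIL10, -2.69 in TIL25, -3.59 in TIL11 and -6.10 in TIL03, with 0.5 CPM added. The gene was higher in leaf in these maize inbreds and higher in ear in these teosinte inbreds, with no overlap. In the hybrids its ear ratios were -1.45, -0.96, -0.90 and 0.00 in 4 crosses.

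GRMZM2G354867 (chromosome 10, 142400452 to 142403269) gave -0.48 in ear (1712 and 2385 reads), 1.45 in leaf (561 and 206) and 0.51 in stem, with 9 of 12 crosses opposed between ear and leaf and all 12 moving toward maize in leaf. In the parents the difference between ear and leaf was 3.63 ± 0.68 (edgeR adjusted p = 0.000564). Leaf over ear was -3.31, -1.43 and 1.07 (lowest, median, highest) in 6 maize inbreds and -6.93, -4.43 and -3.23 in 7 teosinte inbreds. By the medians both species thus had more of it in ear, teosinte by more, though the highest maize value, 1.07, was that of an inbred with more in leaf. The ranges overlapped only at CML103 and TIL03. Between ear and stem the parents gave 1.73 ± 0.68 (edgeR adjusted p = 0.171).

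GRMZM2G006937 on chromosome 5 (78255377 to 78309561) was called in both of its pairs. Its F1 ratio was -1.13 in ear (849 and 1859 reads), 0.49 in leaf (9191 and 6564) and -1.02 in stem (714 and 1448), with crosses from -6.92 through -1.42 to 4.21 in ear, from -0.92 through 0.19 to 3.51 in leaf and from -6.33 through -1.51 to 1.60 in stem. Ear favoured teosinte in 21 of 24 crosses and leaf favoured maize in 18 of 28. The parents differed by 2.89 ± 0.60 between ear and leaf (edgeR adjusted p = 0.00186) and by 2.97 ± 0.62 between leaf and stem (edgeR adjusted p = 0.0332). Leaf over ear was 1.86 to 6.11 in 6 maize inbreds and -1.42 to 2.60 in 9 teosinte inbreds, which overlapped.

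For bx1 the parents differed by 3.29 ± 1.00 between ear and leaf (edgeR adjusted p = 0.0327), the direction of the hybrids. Leaf over ear was 4.55 in B73, 3.3 in Mo17, 6.74 in Oh43 and 1.71 in W22 against -0.54 in TIL09, -0.63 in TIL10, 2.49 in TIL15 and 1.40 in TIL25. The species overlapped through W22 and TIL15, and the call was lost in DESeq2 (adjusted p = 0.245) and without replicate 2 (edgeR adjusted p = 0.132). The difference was 2.27 ± 1.03 for bx2 (edgeR adjusted p = 0.140) and -0.11 ± 0.70 for bx5 (edgeR adjusted p = 0.961). For bx3, bx4 and bx8 of the same cluster it was -0.36 ± 0.64, -0.39 ± 0.66 and -0.25 ± 0.41. By this fit the maize ratio of the parents was higher in leaf for bx1 and bx2, of which only bx1 was called. The negative differences of bx3, bx4, bx5 and bx8 were each smaller than their SE, so their signs are not settled. With parent reads taken at the sites of each cross, bx5 had ratios of -0.83 in ear and -0.58 in leaf, higher in leaf. By that measure bx1 and bx2 were also higher in leaf, and bx3, bx4 and bx8 lower. Among the other genes of the pathway only bx9 was called in the parents, with maize relatively higher in leaf by 1.60 ± 0.37 (edgeR adjusted p = 0.00403), and its F1 ratios were not opposed.

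GRMZM2G324297, described above, differed by 2.20 ± 0.51 in the parents between ear and leaf (edgeR adjusted p = 0.00493). Leaf over ear was 1.66 to 3.26 in 6 maize inbreds and -1.07 to 1.61 in 6 teosinte inbreds, which did not overlap. GRMZM2G005840 (chromosome 1; F1 ear -0.50, leaf 0.55, stem 0.47; 4 of 6 crosses opposed) differed by 3.72 ± 0.78 (edgeR adjusted p = 0.00396). Its leaf over ear values were -0.42 in B73, 0.24 in CML103, 1.45 in Oh43 and 1.63 in W22 against -2.61 in TIL11 and -3.49 in TIL14. These did not overlap either, but only 2 teosinte inbreds had reads enough to be shown.

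The other calls between ear and leaf in the F1 direction were smaller. GRMZM2G141858 (chromosome 5; F1 ear -0.65, leaf 1.58) differed by 1.97 ± 0.56 (edgeR adjusted p = 0.0328), GRMZM2G017815 (chromosome 10; ear -0.44, leaf 0.42) by 2.19 ± 0.57 (edgeR adjusted p = 0.0115), GRMZM2G098187 (chromosome 2; ear -1.26, leaf 0.41) by 2.19 ± 0.66 (edgeR adjusted p = 0.0258) and GRMZM2G059753 (chromosome 3; ear -0.49, leaf 0.45) by 1.48 ± 0.48 (edgeR adjusted p = 0.0433). In the hybrids they were opposed in 3 of 6, 3 of 5, 2 of 4 and 4 of 15 crosses. Without replicate 2 each of these 4 calls was lost, with edgeR adjusted p of 0.0885, 0.274, 0.360 and 0.246. So were the calls of GRMZM2G324297 between ear and leaf (edgeR adjusted p = 0.160), of thi1 between ear and stem (edgeR adjusted p = 0.0541) and of GRMZM2G006937 between leaf and stem (edgeR adjusted p = 0.302). GRMZM2G141858 was also lost in DESeq2 (adjusted p = 0.0567), and GRMZM2G059753 without the filter on low counts (edgeR adjusted p = 0.0607). Without replicate 1 the call of GRMZM2G141858 was lost too (edgeR adjusted p = 0.0796), and so was that of GRMZM2G005840 (edgeR adjusted p = 0.0520).

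Between ear and stem, GRMZM2G159307 (chromosome 3; F1 ear 0.51, stem -0.71; 4 of 11 crosses opposed and 9 moving toward maize in ear) differed by 3.53 ± 0.67 in the parents (edgeR adjusted p = 0.00145), and thi1 by 3.68 ± 1.03 (edgeR adjusted p = 0.0428). Ear over stem of GRMZM2G159307 was 1.41, 2.64 and 5.05 in 6 maize inbreds and -2.73, 0.53 and 1.64 in 8 teosinte inbreds, which barely overlapped. GRMZM2G139512 (chromosome 10) went the other way. Its F1 ratio was 0.47 in ear and -0.50 and -0.48 in leaf and stem, but the parents differed by -3.06 ± 0.51 between ear and leaf (edgeR adjusted p = 0.000187) and by -2.92 ± 0.50 between ear and stem (edgeR adjusted p = 0.000503), so that teosinte was relatively higher in ear. In the hybrids Oh43xTIL10, whose ear libraries are both labelled as the same replicate, gave 58.6% of its ear reads. Of the crosses, 4 of 15 were opposed between ear and leaf.

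Members with uniform hybrids were not always matched by the parents. For GRMZM2G105822 the parents differed by 0.06 ± 0.56 between ear and leaf (edgeR adjusted p = 0.975) and for GRMZM2G042181 by -2.22 ± 1.01 (edgeR adjusted p = 0.149). The parents of GRMZM2G152548 gave 0.48 ± 0.48 (edgeR adjusted p = 0.557), those of GRMZM2G433557 0.93 ± 0.34 (edgeR adjusted p = 0.0687) and those of GRMZM2G124365, between leaf and stem, 0.67 ± 0.40 (edgeR adjusted p = 0.467). For GRMZM2G415579 they gave 2.72 ± 0.78 between leaf and stem (edgeR adjusted p = 0.136), with no overlap of leaf over stem between 6 maize inbreds (-3.69 to -0.05) and 3 teosinte inbreds (-4.41 to -3.76).

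The same measure in hybrids that the rule did not use came from Mo17xTIL01, with 2 leaf and 2 stem libraries. Of 51 members opposed in leaf and stem, 22 had reads enough in it, and the allele ratio differed between the tissues in the direction of the other crosses in 13 of these (59.1%, against 53.9% of scored genes). Past an adjusted p of 0.05 by edgeR's quasi-likelihood test were 2 of 22, both in that direction, where 0.418% of 10058 genes and 0.425% of scored genes passed. Mo17 and TIL01 were also parents of crosses that chose the members, so this hybrid shares genotypes with them.

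GRMZM5G852177 (chromosome 1, 172903819 to 172907623), which gave -0.89 in leaf and 0.80 in stem over the crosses of the rule, had log2 ratios of -0.93 and -3.31 in the leaf libraries of Mo17xTIL01 and of 1.24 and 1.42 in its stem libraries. The tissues did not overlap, and the fitted difference was 3.83 ± 0.69 (edgeR adjusted p = 0.0110). In the crosses of the rule it was opposed in 0 of 4. GRMZM2G006937 had ratios of -0.70 and 0.29 in leaf and of -1.98 and -2.40 in stem, with no overlap and a difference of 2.08 ± 0.45 (edgeR adjusted p = 0.0450). GRMZM2G152548 had -0.42 and -0.43 in leaf and 1.78 and 0.56 in stem, a difference of 1.82 (edgeR adjusted p = 0.0787). Other members went against the direction of the rule's crosses. GRMZM2G124365, opposed between leaf and stem in the most crosses, had -0.05 and 0.00 in leaf and 0.33 and -0.26 in stem, which overlapped, with a difference of -0.13 ± 0.35 (edgeR adjusted p = 0.996). GRMZM2G375593 had -0.65 and -0.57 in leaf and -5.21 and -3.17 in stem, with a difference of -3.55 ± 1.12 (edgeR adjusted p = 0.276) on 8 to 30 reads a library. Counts were low for GRMZM5G852177, with 15 and 48 leaf reads, and neither call held in DESeq2 (adjusted p of 0.0926 for GRMZM5G852177, and of 0.0716 to 0.158 for GRMZM2G006937 over 3 other settings, DESeq2 among them).

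The summed level of both alleles, which the rule used only for its minimum, differed between tissues for most genes. By the edgeR quasi-likelihood test with the cross as a block and Benjamini-Hochberg adjustment, 49 of 58 members that passed the filter on low counts differed between ear and leaf, where 81.3% of all genes and 80.3% of scored genes did. Of these, 34 were higher in leaf (38.6% of all genes were) and 15 in ear (42.6%). Between ear and stem 17 of 21 differed (66.1% of all and 65.3% of scored genes), 9 higher in stem (33.7% of all genes) and 8 in ear (32.4%). Between leaf and stem 26 of 40 differed (72.6% and 72.1%), 19 higher in leaf (30.7%) and 7 in stem (41.9%). The allele favoured in the tissue with the higher level was that of maize in 30 of the 49, 8 of the 17 and 16 of the 26. No share over all scored genes is given beside these counts. In both pairs with leaf, more members had the maize allele higher in leaf, and more of those that differed had the higher level there. The counts thus say nothing about the members as such. The median size of the log2 difference was 1.09, 0.99 and 0.89 for members and 0.74, 0.44 and 0.53 for all genes tested.

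Among the members described, summed levels changed in either direction. Both alleles together were higher in leaf than in ear by 2.20 ± 0.27 for bx2 and 1.38 ± 0.15 for bx5, by 3.08 ± 0.21 for GRMZM2G324297 and by 2.91 ± 0.18 for GRMZM2G006937 (log2 and SE; the largest edgeR adjusted p of these 4 was 1.03e-09). In these genes the maize allele was the higher in leaf, the tissue with more reads. GRMZM2G105822 and GRMZM2G354867 were lower in leaf than in ear by -1.01 ± 0.21 (edgeR adjusted p = 2.75e-05) and -2.31 ± 0.16 (edgeR adjusted p = 1.98e-19), though maize was higher in leaf in both. For bx1 the filter left no test, and its reads rose in number from 360 in ear to 4027 in leaf and 21760 in stem.

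The members lay on all 10 chromosomes, from 6 on chromosome 6 to 19 on chromosome 1. As a share of the scored genes of a chromosome, they ranged from 0.426% on chromosome 2 to 1.09% on chromosome 10. They had a median of 16 polymorphic sites against 18 for scored genes, and 18 members shared at least 1 site with another gene model, 3 of them over 50% of their sites. Among members within 500 kb of each other, those that shared a pair of tissues and its direction were bx1, bx2 and bx5, and the pair GRMZM2G013170 and GRMZM2G156351. The other neighbours did not. GRMZM2G126601, 334 to 486 kb from these bx genes, had the reverse order, with maize higher in ear and teosinte in leaf. GRMZM2G040161 and GRMZM2G040213, 3.0 kb apart, were opposed in different pairs of tissues.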

How the data were processed

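The deposited files hold whole-number counts of F1 or parent reads at polymorphic sites of each gene model. Per the study's methods and labels, the authors made strand-specific polyA libraries, aligned reads without mismatch with Bowtie to the transcript sequences of both parents, for which the B73 transcripts were edited at each line's own variants (found against the AGPv2 genome with BWA and GATK), and counted reads of each allele. Perfect alignment to both parents lowers reference bias, but a variant missed in 1 parent removes that allele's reads.

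Each position was counted once per gene model and cross, runs of a library were summed, and 529409 sites over 28 crosses were used. A position in more than 1 gene model was counted for each of them, and a read over several positions was counted at each. Libraries with under 45% or over 55% maize reads and crosses without all 3 tissues were left out. F1 ratios were log2 of summed counts, with 0.5 added and at least 20 reads for single crosses. Parents (reads of 6 maize and 9 teosinte inbreds summed per tissue, 585750 to 4278165 per library), the cross Mo17xTIL01 and the F1 totals were tested across all genes with the edgeR quasi-likelihood test (edgeR 4.0.16, limma 3.58.1, R 4.3.3), TMM factors, a filter on low counts and Benjamini-Hochberg adjustment. Scripts used Python 3.11.15, numpy 2.4.6, pandas 2.3.3, scipy 1.17.1 and matplotlib 3.10.9. On simulated counts for 18683 genes the test of the parents recovered 20.9%, 82.1% and 100% of log2 changes of 1, 2 and 3. For the left-out cross it recovered 0%, 7.46% and 45.5% over 10058 genes. Every simulated gene had a dispersion set at 0.1, which was not estimated from these data, and changed genes lost to the filter counted as missed. At this setting most simulated differences were not detected in the left-out cross.

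The members and lists were chosen with earlier results of these data known. Named genes were, per pair of tissues, the 10 members with the largest smaller size of the opposed ratios, the 10 with the most crosses opposed, those with a RefSeq name, those called in the parents or the left-out cross, and 3 genes on each side of the threshold. Gene names came from a RefSeq table of assembly Zm-B73-REFERENCE-NAM-5.0, whose coordinates were not used. DESeq2 1.42.0, other normalizations, filters, thresholds, sets of libraries and leaving out replicates were tried as alternatives. No sequences are shown.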

Additional observations from a re-analysis of the deposited data

Results flagged for a closer look

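Of 19 groups of 4 to 10 crosses that were checked, 2 held a value far from the others, where chance gives about 1 in 20. The stem ratio of bx1 in Mo17xTIL14 was 5.69, with the nearest of the other 7 crosses at 1.74. The leaf ratio of GRMZM2G139815 in CML103xTIL03 was -1.38, with the nearest of the other 7 at 0.51.

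Maize and teosinte inbreds differed between ear and leaf by the edgeR interaction test, in log2 and in the direction of the F1 difference, by 3.29 for bx1, 2.20 for GRMZM2G324297, 4.69 for GRMZM2G139815, 1.97 for GRMZM2G141858, 3.72 for GRMZM2G005840, 2.89 for GRMZM2G006937, 3.63 for GRMZM2G354867, 1.48 for GRMZM2G059753, 2.19 for GRMZM2G017815 and 2.19 for GRMZM2G098187. GRMZM2G139512 differed against the F1 direction, by -3.06 between ear and leaf and by -2.92 between ear and stem. Between ear and stem the inbreds differed by 3.53 for GRMZM2G159307 and 3.68 for thi1, and between leaf and stem by 2.97 for GRMZM2G006937. In the hybrid Mo17xTIL01 the allele ratio differed between leaf and stem by 3.83 for GRMZM5G852177 and by 2.08 for GRMZM2G006937.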

How the results depend on the processing

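The number of members depended on the rule. Of the 121 genes, 58 remained at a threshold of 0.5 and 57 at a minimum of 500 reads. The mean of the log2 ratios of the crosses gave 281 genes, 81 of them members, and the deepest site of each gene gave 56, of which 15 were members. Counting every transcript line gave 150 genes. Other sets of libraries gave 121 to 131 genes, including 123 without B73xTIL01, which was chosen after seeing the data. Leaving out replicates gave 102 to 107 genes, of which 47 and 58 were members, and 37 of 145 pairs of a gene and its tissues met the rule in both, though 133 were opposed the same way in both. Both settings used reads that chose the members, and both kept the libraries with later replicate numbers. The agreement in sign is thus partly set by the choice, and no value for all scored genes is given beside it. GRMZM2G105822 and GRMZM2G023152 met the rule under all 11 settings. The difference of F1 ratios turned for GRMZM2G005840 (stem minus ear, -0.15 without replicate 2 and 1.85 without replicate 1), thi1 (stem minus ear, -0.47 as the mean of crosses), GRMZM2G134264 (leaf minus stem, -0.27 at the deepest site) and GRMZM2G139512 (without replicate 1, ear minus leaf -0.14 and ear minus stem -0.067, and without replicate 2, 1.41 and 1.26). Leaving out replicate 1 also takes away all ear reads of Oh43xTIL10, Ki3xTIL03, Oh43xTIL03 and W22xTIL14, whose ear libraries carry only that number. These settings thus change the crosses as well as the replicates. The causes were not tested.

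Replicate numbers did not pair the samples, since correlations of deviations of same-numbered libraries passed 0.1 in 9 of 66 F1 and 3 of 42 parent pairs. In the parents, libraries as separate samples gave 4952, 1969 and 1445 calls over all genes for ear and leaf, ear and stem, and leaf and stem (2453, 648 and 30 with summed libraries), and 22, 9 and 12 among members (11, 3 and 1). With the replicate block these were 4541, 1663 and 1017, and 21, 8 and 9. DESeq2 gave 1065 and 263 in the pairs with stem, and 2 members for leaf and stem. Without 1 replicate the calls were 743 to 2339, 252 to 428 and 4 to 182 over all genes, and 5 to 15, 3 both times, and 0 to 2 among members. The F1 total level called 39 to 41, 11 to 13 and both times 21 members without 1 replicate. With all libraries it called 49, 17 and 26 members, and 81.3%, 66.1% and 72.6% of all genes. Shares over all genes without 1 replicate are not given, so these counts say nothing about the members as such. In Mo17xTIL01, DESeq2 called 27 genes and 0 members (edgeR 42 and 2, with 5 members at an unadjusted p under 0.05), and no filter on low counts 18 and 1. The fit without normalization factors called 1 member, with no count over all genes given. Leaving out a replicate there could not be fitted, since no residual degrees of freedom remain.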
